A study of Mus musculus with 6 samples.

Results

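RNA of macrophages from visceral fat was compared between mice given 4-hydroxyestrone (4-OHE1, named E1170 in part of the deposited headers) and mice given estradiol (E2) at the same dose. The donors were male C57BL/6N mice aged 12 weeks on a high-fat diet (60 kcal% fat), injected subcutaneously every 6 days over 30 days with E2 at 10 mg/kg, with 4-OHE1 at 10 mg/kg, or with the ethanol vehicle alone (EtOH). Digested visceral white adipose tissue was stained for CD45, and live cells carrying F4/80 and CD11b, which mark macrophages, were sorted. Each group had 2 libraries, and no label states if these came from separate animals, so p-values measure the spread between libraries, which may be technical. The comparison used the 2 E2 and 2 4-OHE1 libraries, and the EtOH values are given beside them as the level without an estrogen. The deposited table lists 24421 genes. The 10833 with a mean of at least 1 RPKM over the 4 libraries were tested, 8129 were at 0 in all 4, and 5459 lay above 0 but under the minimum. RPKM is a read count divided by exon length and by the library's total of tags. Nqo1 (0.99975 RPKM) and Shc2 (0.9995) lay just under the minimum, and Sfn (1.0002) and Gng7 (1.0003) just over it.

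Estradiol is the main circulating estrogen and acts through the nuclear receptors ERα and ERβ and a membrane receptor, which are the products of Esr1, Esr2 and Gper1. 4-Hydroxyestrone is a catechol estrogen, formed from estrone by the cytochrome P450 enzyme that Cyp1b1 encodes. It differs from estradiol by an added hydroxyl group on the aromatic ring and by a ketone in place of the hydroxyl group on the D ring. Macrophages of obese visceral fat take up lipid, secrete chemokines that draw in other leukocytes, and respond to microbial and lipid signals through the transcription factor NF-kB. NF-kB switches on chemokine and cytokine genes together with genes of its own inhibitors. Glucocorticoids act on the same cells through their own receptor, lower inflammatory genes and raise a set that includes Fkbp5 and Zbtb16. Only 1 pair of compounds was compared, at 1 dose and 1 time.

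The libraries held 5349386 and 5606659 reads in exons in E2 and 5764342 and 4515276 in 4-OHE1. Of all tags, 75.0% and 71.6% lay in exons in E2, 61.8% and 60.1% in 4-OHE1, and 83.6% and 84.2% in EtOH. The E2 and 4-OHE1 libraries did not overlap in this share, and the exact two-sided permutation test gave p = 0.333, the smallest that 2 against 2 libraries allow. Because the authors divided by all tags, the median log2 change of 4-OHE1 over E2 was -0.24 with their scaling and -0.01 relative to exon reads. A gene is called higher or lower only where limma passed it at an adjusted p of 0.05 in the same direction under both scalings. The log2 changes given are those of 4-OHE1 over E2 with exon reads as the base. Of the pair of adjusted p-values the larger is printed, and RPKM are as deposited. Placements against EtOH and sums over a list thus use deposited RPKM. Since EtOH had the largest exon share and 4-OHE1 the smallest, 4-OHE1 stands higher against both other groups relative to exon reads. Since 1 RPKM was added before the logarithm, the changes of genes near or below 1 RPKM are understated. The change also moved with exon length: its median went from -1.16 over 188 genes under 200 bases to -0.19 between 200 and 1000 bases and 0.26 over 936 genes above 6000 bases (Spearman's rho 0.294 and Pearson's r 0.289 across genes, which are not independent replicates). Results of lists of short genes are therefore also given with this trend removed, an alternative chosen after seeing the data.

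**Figure D1:**
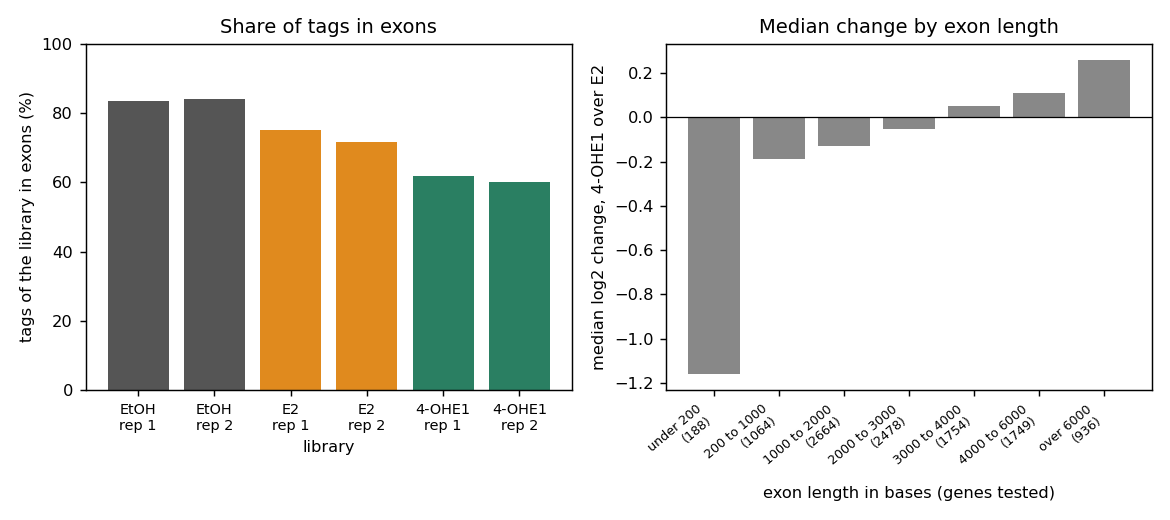
The left plot gives the percentage of tags in exons for each of the 6 libraries, and the right plot the median log2 change of 4-OHE1 over E2, relative to exon reads, for the genes tested in 7 classes of exon length. The share was 61.8% and 60.1% in 4-OHE1 and 75.0% and 71.6% in E2, and the median change went from -1.16 in genes under 200 bases to 0.26 in those over 6000.

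Sorting antigens were present in all libraries. Adgre1, which encodes F4/80, stood at 178 and 166 RPKM in E2, 144 and 134 in 4-OHE1 and 301 and 305 in EtOH. Between the estrogens it changed by -0.04 on the log2 scale (95% interval -0.24 to 0.16, and -0.54 to -0.07 with the authors' scaling), an interval within 2-fold. Itgam, which encodes CD11b, stood at 117 and 108 RPKM in E2, 69.5 and 72.6 in 4-OHE1 and 109 and 109 in EtOH, with a log2 change of -0.39, which was not called (adjusted p = 0.0887). Csf1r, the receptor of the macrophage growth factor, read 701 and 623 RPKM in E2, 696 and 667 in 4-OHE1 and 776 and 783 in EtOH. Its log2 change was 0.31 (95% interval 0.17 to 0.45, and -0.15 to 0.24 with the authors' scaling). It was not called in limma (adjusted p = 0.765), whereas edgeR gave an adjusted p of 0.00163. In bulk RNA, fewer cells of a type and less RNA per cell cannot be told apart, and this holds for every result below.

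Among the 10833 genes, 100 were higher in 4-OHE1 than in E2 (0.923%) and 313 were lower (2.89%). Of these, 71 higher and 167 lower genes differed at least 2-fold. A difference of 4-fold or more was reached by 11 higher and 54 lower genes. The 4-OHE1 and E2 libraries did not overlap for any of the 413 genes. With 2 libraries a group, passing the test all but requires this, so it adds no support to the calls. At an unadjusted p under 0.05, 1646 genes passed. The edgeR test on whole reads recovered from the deposited tables called 601 of 10676 genes higher (5.63%) and 512 lower (4.8%), and shared 88 of the 100 higher and 265 of the 313 lower genes. The share of calls that were higher thus was 24.2% in limma and 54.0% in edgeR. It was 8.66% with the authors' scaling alone (where 1065 were lower), 34.0% relative to exon reads alone (161 and 313) and 46.8% with the length trend removed (138 and 157). Removing the trend kept 82 of the higher and 156 of the lower calls. Without E2 replicate 1 or without E2 replicate 2, limma called 0 genes in either direction, with 852 and 770 genes at an unadjusted p under 0.05. Without 4-OHE1 replicate 1 or 2 it called 114 and 132 higher, and 494 and 473 lower. Every call named below is thus lost without either E2 library. The shares of 0.923% higher and 2.89% lower are the background for the counts of each list below.

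**Figure D2:**
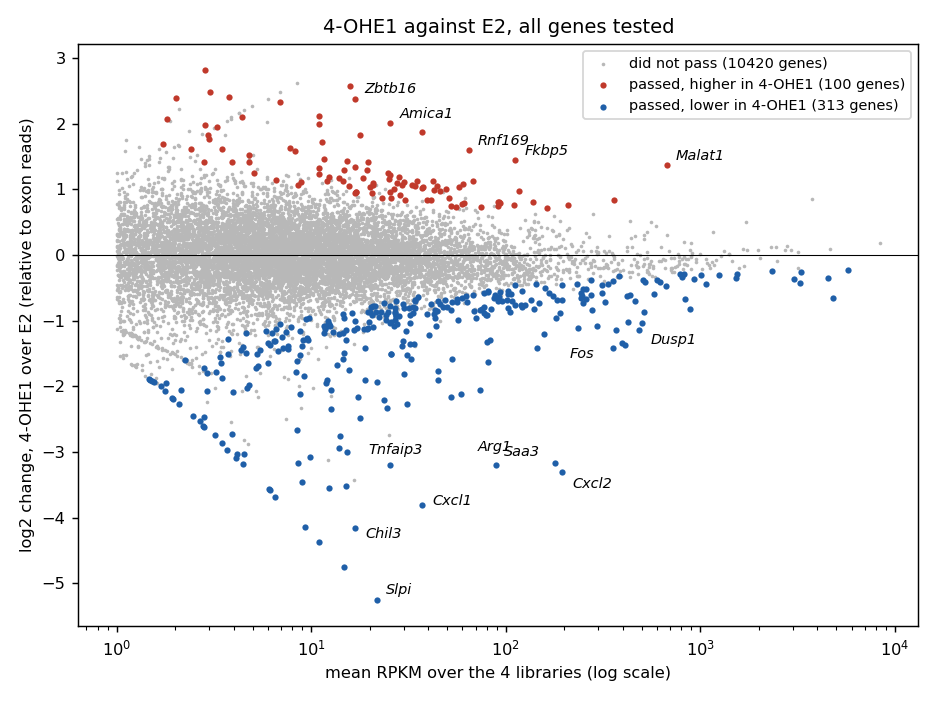
Each point is 1 of the 10833 genes tested, with the mean RPKM over the 4 libraries on a log axis and the log2 change of 4-OHE1 over E2 relative to exon reads on the vertical axis. The 313 genes that passed as lower reach down to -5.25 (Slpi), and the labelled genes among the 100 that passed as higher reach up to 2.38 (Zbtb16).

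Chemokine genes were mostly lower with 4-OHE1 than with E2 where they passed. Of 24 tested, 11 were lower in 4-OHE1, 1 was higher and 12 did not pass, beside 2.89% lower and 0.923% higher among all genes. The list's median log2 change was -0.65, against -0.01 for all genes. Cxcl1, a chemokine that attracts neutrophils (NM_008176, chromosome 5, 91320271 to 91322141, plus strand, build mm9), read 67.8 and 73.8 RPKM in E2, 3.45 and 3.29 in 4-OHE1 and 71.7 and 76.5 in EtOH. E2 thus lay at the level of the vehicle and 4-OHE1 far below both. The log2 change was -3.80 (95% interval -4.20 to -3.41, adjusted p = 0.000247). Its neighbour Cxcl2, another neutrophil attractant (NM_009140, chromosome 5, 91332925 to 91334964, plus strand, build mm9), showed the same order at a higher level, with 367 and 353 RPKM in E2, 34.3 and 25.5 in 4-OHE1 and 399.8 and 432 in EtOH (log2 change -3.30, 95% interval -3.63 to -2.97, adjusted p = 0.000247). Reads of these near copies may not be fully separable. Ccl2, the main attractant of monocytes and named here after its values were seen, stood at 80.0 and 86.9 RPKM in E2, 24.5 and 20.7 in 4-OHE1 and 82.0 and 83.1 in EtOH (log2 change -1.58, adjusted p = 0.00320).

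Chemokines also differed in where E2 stood against the vehicle. Ccl4, which attracts T cells and monocytes, read 46.7 and 38.5 RPKM in E2, 7.95 and 4.93 in 4-OHE1 and 25.7 and 27.1 in EtOH (log2 change -2.33, adjusted p = 0.00470), so the vehicle lay between the estrogens. Cxcl10, induced by interferon and NF-kB, was at 14.8 and 15.8 RPKM in E2 and 13.6 and 13.02 in EtOH, and at 2.77 and 0.369 in 4-OHE1, whose libraries lay apart from each other but below all others (log2 change -2.66, 95% interval -3.77 to -1.54, adjusted p = 0.0315). Cxcl13, the B cell chemokine, had a different order, since E2 was highest and 4-OHE1 lay above but nearer to the vehicle. It read 43.3 and 54.7 RPKM in E2, 9.94 and 12.0 in 4-OHE1 and 9.15 and 7.74 in EtOH (log2 change -1.81, adjusted p = 0.00703). The member that was higher in 4-OHE1 was Cx3cl1, a membrane-bound chemokine that stromal and fat cells also make, at 3.07 and 1.69 RPKM in E2, 7.71 and 6.74 in 4-OHE1 and 1.38 and 1.07 in EtOH (log2 change 1.52, adjusted p = 0.0359). Cxcl10 and Cx3cl1 did not pass with the length trend removed, where 7 chemokines were lower and 2 higher, and Cx3cl1 did not pass without 4-OHE1 replicate 1 or 2 either (log2 change 1.45 and 1.59). Cxcl13 and Cx3cl1 were also added after their values were seen.

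Of 10 inflammatory cytokine genes tested, 3 were lower and 7 did not pass (median log2 change -0.98). Tnf, the cytokine that drives much of the response of fat macrophages, read 47.6 and 42.7 RPKM in E2, 17.1 and 15.7 in 4-OHE1 and 30.2 and 34.9 in EtOH. E2 was the highest group and 4-OHE1 the lowest, with no overlap (log2 change -1.15, 95% interval -1.49 to -0.82, adjusted p = 0.0115). Osm, oncostatin M, a cytokine of the interleukin-6 family, had the same order, with 10.9 and 9.03 RPKM in E2, 2.45 and 1.63 in 4-OHE1 and 6.85 and 6.35 in EtOH (log2 change -1.65, adjusted p = 0.0215). Il1rn, which encodes the antagonist of the interleukin-1 receptor and so belongs to the brakes of inflammation, was lower as well, at 16.2 and 20.9 RPKM in E2, 0.316 and 2.13 in 4-OHE1 and 31.4 and 31.0 in EtOH (log2 change -3.07, adjusted p = 0.0177). Il1b and Il6, looked up after seeing the data, were low in both estrogen groups. Il1b had 2.33 and 2.41 RPKM in E2 and 0 and 0.402 in 4-OHE1, and Il6 had 2.37 and 2.52 and 0 and 1.38, and neither passed (adjusted p = 0.117 and 0.3001).

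Genes of the NF-kB pathway itself encode subunits and inhibitors. Of 19 tested, 5 were lower, 0 were higher and 14 did not pass (median log2 change -0.48), and edgeR called 8 lower and 0 higher. At an unadjusted p under 0.05, 0 of the 19 were higher. Tnfaip3, which encodes the ubiquitin-editing inhibitor A20, showed the largest change of the list, with 49.4 and 45.8 RPKM in E2, 3.49 and 3.51 in 4-OHE1 and 59.7 and 59.4 in EtOH (log2 change -3.20, 95% interval -3.60 to -2.80, adjusted p = 0.000514). Genes of the IκB family, which hold or modulate NF-kB, were also among the lower ones. Nfkbid read 14.8 and 16.0 RPKM in E2, 4.40 and 1.82 in 4-OHE1 and 11.3 and 11.5 in EtOH (log2 change -1.85, adjusted p = 0.0315). Nfkbie read 8.99 and 8.99 RPKM in E2, 1.74 and 1.66 in 4-OHE1 and 14.4 and 14.2 in EtOH (log2 change -1.68, adjusted p = 0.0165). Nfkbia, the gene of IκBα and added after seeing its values, was the most abundant of them at 393 and 368 RPKM in E2, 174 and 178 in 4-OHE1 and 383 and 409.7 in EtOH, a smaller change of -0.84 (adjusted p = 0.00320). Among subunits, Nfkb2, the precursor of p52, was lower at 19.8 and 18.7 RPKM in E2, 6.51 and 6.76 in 4-OHE1 and 23.7 and 24.1 in EtOH (log2 change -1.17, adjusted p = 0.0208). Nfkbid did not pass with the length trend removed.

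Promoters of several of these genes carry the kappa B motif, the DNA element that NF-kB binds, and others do not. Those shown are a choice of lower genes with a match, and the sequences are the 200 bases before the annotated start from RefSeq (GRCm38.p6), 5′ to 3′ on the gene's strand, with bases of a kappa B match in capitals.
Cxcl1 (chr5:90891045-90891244, plus strand): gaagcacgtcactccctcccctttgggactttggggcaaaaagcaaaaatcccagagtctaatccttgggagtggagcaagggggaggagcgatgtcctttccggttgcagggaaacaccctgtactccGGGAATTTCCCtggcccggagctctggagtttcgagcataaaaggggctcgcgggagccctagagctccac
Cxcl2 (chr5:90903699-90903898, plus strand): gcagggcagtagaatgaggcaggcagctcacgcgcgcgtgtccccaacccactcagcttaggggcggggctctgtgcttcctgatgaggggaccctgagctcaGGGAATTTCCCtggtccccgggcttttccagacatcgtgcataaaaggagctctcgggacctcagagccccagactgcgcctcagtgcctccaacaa
Tnfaip3 (chr10:19015411-19015610, minus strand): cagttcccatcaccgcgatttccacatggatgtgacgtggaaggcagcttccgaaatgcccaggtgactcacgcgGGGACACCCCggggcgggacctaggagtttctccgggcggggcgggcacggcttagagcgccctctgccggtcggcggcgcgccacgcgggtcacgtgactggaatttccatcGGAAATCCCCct
Cxcl10 (chr5:92348890-92349089, minus strand): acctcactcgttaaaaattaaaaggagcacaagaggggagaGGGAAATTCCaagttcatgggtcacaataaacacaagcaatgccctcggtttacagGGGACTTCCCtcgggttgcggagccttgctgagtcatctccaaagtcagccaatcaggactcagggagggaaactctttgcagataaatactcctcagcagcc
Nfkbia (chr12:55492648-55492847, minus strand): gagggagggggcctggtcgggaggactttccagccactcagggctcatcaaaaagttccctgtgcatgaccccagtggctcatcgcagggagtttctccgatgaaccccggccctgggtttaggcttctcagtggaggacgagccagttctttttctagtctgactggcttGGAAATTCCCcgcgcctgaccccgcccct
In Cxcl1 overlapping matches began 71 and 70 bases before the start, and in Cxcl2 97 and 96 bases before it. Tnfaip3 held matches 125 and 12 bases before the start, Cxcl10 159 and 103, and Nfkbia 29. Nfkbie and Nfkb2 held matches too, whereas Tnf, Saa3, Slpi, all 3 promoters of Il1rn and the other promoter of Tnfaip3 held 0, which says only that these letters are not in the window. Both strands were searched in the whole RefSeq entry around each start, for the kappa B consensus of 10 letters and for the AP-1 motif TGANTCA. The E-box CACGTG and the cyclic AMP, glucocorticoid and estrogen response elements were searched as well. Of 32851 promoters in the RefSeq table, 4.51% held a kappa B match. Counted by gene, a match stood in 6.17% of the 8186 tested genes with a promoter entry, in 26 of 211 lower genes (12.3%) and in 3 of 70 higher genes (4.29%). AP-1, the motif of Fos and Jun proteins, stood in 7.81% of promoters, 6.16% of the tested genes, 32 of 211 lower genes (15.2%) and 2 of 70 higher genes (2.86%). The E-box stood in 12.0% of the tested genes, 32 of 211 lower genes (15.2%) and 4 of 70 higher genes (5.71%). For the cyclic AMP element these were 3.77%, 9 of 211 (4.27%) and 0 of 70. The glucocorticoid element stood in 0.305% of the tested genes, 0 of 211 lower and 1 of 70 higher genes. The estrogen element stood in 0 of the tested genes. These counts describe letters in the promoters, with no test, and some promoters hold both kappa B and AP-1.

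**Figure D3:**
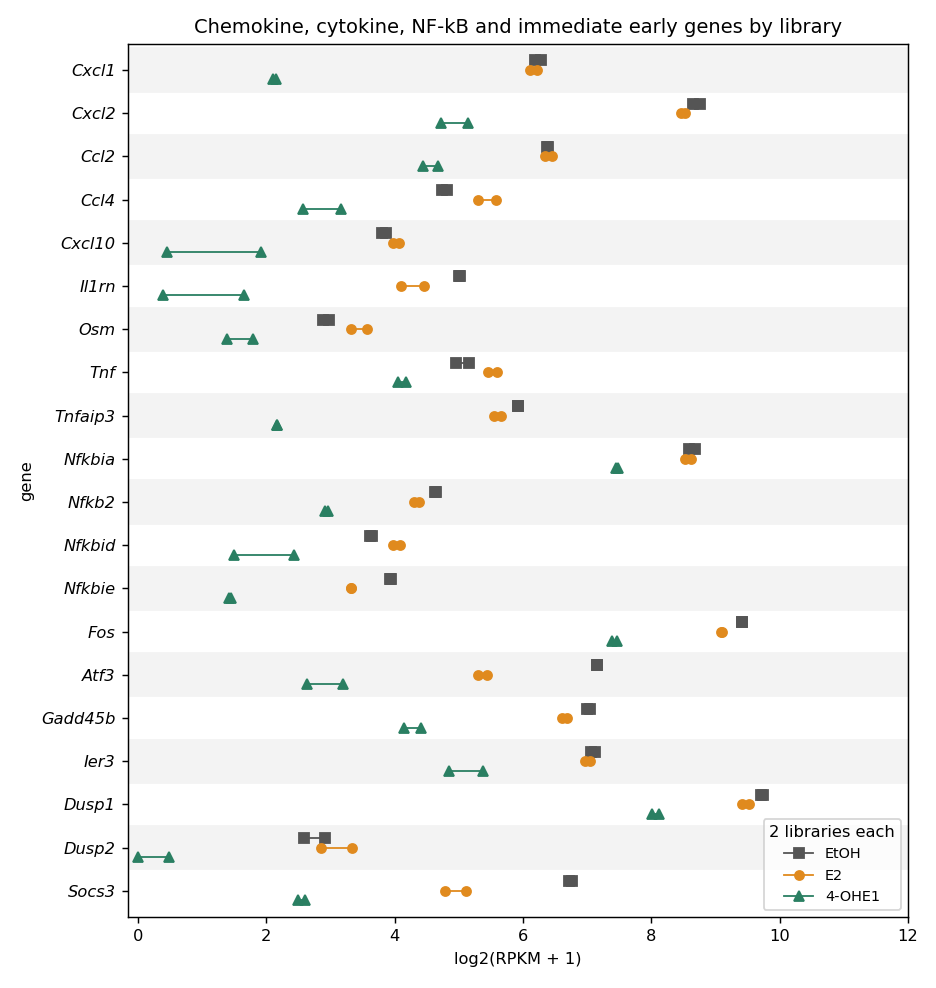
Each line is a gene, with log2(RPKM + 1) of the 2 EtOH (squares), 2 E2 (circles) and 2 4-OHE1 (triangles) libraries joined by a line. In all 20 genes the 4-OHE1 libraries lie below both E2 libraries, and for Cxcl1, Ccl2, Nfkbia and Ier3 the E2 libraries lie close to EtOH.

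Immediate early genes, which cells switch on within minutes of a stimulus, were lower with 4-OHE1 in every member that passed. Of 26 tested, 14 were lower, 0 were higher and 12 did not pass (median log2 change -0.82). At an unadjusted p under 0.05, 20 were lower and 0 higher, and edgeR called 17 lower and 0 higher. Dusp2, a phosphatase that ends MAP kinase signals, read 9.06 and 6.25 RPKM in E2, 0.404 and 0 in 4-OHE1 and 6.54 and 5.04 in EtOH (log2 change -2.72, adjusted p = 0.0121). Its 4-OHE1 value rests on 6 reads against 181 in E2. Atf3, a stress-induced transcription factor, had a graded order, with 141 and 142 RPKM in EtOH, 42.4 and 38.5 with E2 and 5.23 and 8.14 with 4-OHE1 (log2 change -2.21, 95% interval -2.75 to -1.67, adjusted p = 0.00596). Gadd45b, an NF-kB target that protects from cell death, read 102 and 96.8 RPKM in E2, 16.8 and 20.2 in 4-OHE1 and 132 and 126 in EtOH (log2 change -2.11, adjusted p = 0.00128). Ier3 read 132 and 123 RPKM in E2, 27.7 and 40.7 in 4-OHE1 and 133 and 138 in EtOH, so that E2 lay at the vehicle's level (log2 change -1.63, adjusted p = 0.00955).

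Fos and Dusp1 were the most abundant immediate early genes named. Fos, the partner of Jun in AP-1 and added after seeing its values, read 551 and 540.4 RPKM in E2, 175 and 166 in 4-OHE1 and 684 and 679 in EtOH (log2 change -1.41, 95% interval -1.57 to -1.24, adjusted p = 0.000452). Dusp1, a MAP kinase phosphatase that glucocorticoids can also raise, read 734 and 681 RPKM in E2, 278 and 256 in 4-OHE1 and 832 and 855 in EtOH (log2 change -1.14, 95% interval -1.29 to -0.98, adjusted p = 0.00074). Both genes were thus lowest in 4-OHE1, with no overlap between any groups. Socs3, a feedback inhibitor of cytokine receptors, was 1 of 2 lower genes among 13 of its list, the other being Dusp1. It was graded, at 105 and 107 RPKM in EtOH, 33.5 and 26.7 with E2 and 5.06 and 4.66 with 4-OHE1 (log2 change -2.16, adjusted p = 0.00288).

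Genes of alternative activation, a repair-type state of macrophages, differed between the estrogens in part, with E2 high for several of them. Of 18 tested, 5 were lower, 0 were higher and 13 did not pass (median log2 change -0.47), and edgeR called 8 lower and 2 higher. Among those that did not pass, Mrc1 (0.51), Mgl2 (0.35) and Irf4 (0.69) changed upward, and Clec10a (-0.09) and Stat6 (0.04) changed little. Arg1, the arginase that defines this state in mice, read 171 and 157 RPKM in E2, 14.6 and 13.5 in 4-OHE1 and 43.6 and 48.8 in EtOH. The estrogens thus lay on opposite sides of the vehicle (log2 change -3.20, 95% interval -3.48 to -2.91, adjusted p = 0.000247). Chil3, a chitinase-like gene whose reads may mix with those of Chil4, showed the same order at 35.9 and 30.0 RPKM in E2, 0.853 and 0.530 in 4-OHE1 and 6.08 and 6.19 in EtOH (log2 change -4.15, adjusted p = 0.000558). Alox15, a lipoxygenase, read 29.3 and 28.5 RPKM in E2, 1.63 and 0.955 in 4-OHE1 and 1.64 and 2.56 in EtOH, where 4-OHE1 lay near the vehicle (log2 change -3.52, adjusted p = 0.00128). Tgm2, a transglutaminase, was lower in 4-OHE1 while E2 matched the vehicle, at 22.3 and 21.2 RPKM in E2, 6.81 and 8.08 in 4-OHE1 and 21.3 and 22.9 in EtOH (log2 change -1.19, adjusted p = 0.0218).

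Monocyte genes were likewise lower where they passed: of 13 tested, 8 were lower, 0 were higher and 5 did not pass (median log2 change -1.09). Ly6c2, the antigen of inflammatory monocytes with a near copy in Ly6c1, had 58 reads in the E2 libraries and 0 in those of 4-OHE1, at least 18.1-fold lower against a floor of 3 reads over the group. Its levels were 5.88 and 4.06 RPKM in E2, 0 in both 4-OHE1 libraries and 0.228 and 0.849 in EtOH (adjusted p = 0.0190). Thbs1, thrombospondin, read 33.9 and 29.7 RPKM in E2, 5.12 and 3.03 in 4-OHE1 and 3.73 and 4.05 in EtOH (log2 change -2.49, adjusted p = 0.00427). Fn1, fibronectin, read 132 and 114 RPKM in E2, 24.2 and 23.7 in 4-OHE1 and 66.0 and 68.0 in EtOH (log2 change -2.05, 95% interval -2.33 to -1.77, adjusted p = 0.00074). For both genes E2 was the highest group, whereas Ccr2, the receptor for Ccl2 and added after seeing its values, was highest in EtOH. Ccr2 read 35.3 and 35.2 RPKM in EtOH, 19.8 and 26.4 with E2 and 7.17 and 7.22 with 4-OHE1 (log2 change -1.30, adjusted p = 0.0254).

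The gene with the largest change of all, Slpi, and several like it were high in E2. Slpi, a secreted inhibitor of proteases (NM_011414, chromosome 2, 164179806 to 164182243, minus strand, build mm9), read 47.9 and 38.7 RPKM in E2, 0.125 and 0 in 4-OHE1 and 5.25 and 5.51 in EtOH (log2 change -5.25, 95% interval -5.79 to -4.70, adjusted p = 0.000247). It had 555 reads in the E2 libraries and 1 in those of 4-OHE1, a ratio of 521 for equal depth with an exact 95% counting interval of 93.1 to 20604. Saa3, an acute-phase serum amyloid gene of a family with near copies (NM_011315, chromosome 7, 53967368 to 53971046, minus strand, build mm9), read 348 and 306 RPKM in E2, 33.5 and 25.9 in 4-OHE1 and 21.8 and 27.4 in EtOH. In Saa3 the deposited values of 4-OHE1 lay near those of the vehicle, and relative to exon reads they stand higher against it. The change between the estrogens was -3.17 on the log2 scale (95% interval -3.48 to -2.85, adjusted p = 0.000247). Prg4, which encodes lubricin, read 27.7 and 23.8 RPKM in E2, 2.21 and 1.83 in 4-OHE1 and 3.52 and 4.15 in EtOH (log2 change -2.93, adjusted p = 0.00128). Serpinb2, an inhibitor of plasminogen activators, had 242 reads in E2 and 0 in 4-OHE1, at least 75.7-fold lower by the same floor. Selp, P-selectin, had 149 and 0 reads, at least 46.6-fold lower, with an adjusted p of 0.0466 in limma that did not pass with 0.1 RPKM added in place of 1 or with the length trend removed.

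Alox15, Prg4, Saa3, Selp and Serpinb2 belong to a list of peritoneal macrophage markers, of which 8 of 9 were tested and 5 were lower in 4-OHE1. Icam2 (log2 change -0.89), Ltbp1 (-0.43) and Timd4 (-0.21) were tested and did not pass. The list's summed level was 448 and 395 RPKM in E2, 54.5 and 45.4 in 4-OHE1 and 53.8 and 60.5 in EtOH. Most of the sum in E2 was Saa3. Gata6, the transcription factor that defines these macrophages, was under 1 RPKM in all 6 libraries, at 0.0890 and 0.649 in E2, 0.102 and 0.804 in 4-OHE1 and 0.497 and 0.454 in EtOH. Markers of epididymis or testis, organs that adjoin the visceral fat of male mice, summed to 20.6 and 12.4 RPKM in E2, 4.75 and 5.74 in 4-OHE1 and 2.08 and 1.59 in EtOH, and of 4 tested limma called 0, with 2 at an unadjusted p under 0.05, while edgeR called 1 lower. The part of cells from the peritoneum or adjoining organs in the differences of Saa3, Prg4, Arg1 and Slpi was not tested.

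Lipid-associated macrophage genes, which mark cells that take up and digest lipid in obese fat, were lower in 4-OHE1 than in E2 in each member that limma called. Of 24 tested, 14 were lower, 0 were higher and 10 did not pass (median log2 change -0.67), and edgeR called 19 lower and 1 higher. Ctsk, a cathepsin of lysosomes, read 40.9 and 31.6 RPKM in E2, 6.62 and 7.71 in 4-OHE1 and 58.8 and 65.6 in EtOH (log2 change -1.94, 95% interval -2.39 to -1.49, adjusted p = 0.00470). Fabp5, a carrier of fatty acids, read 55.1 and 47.3 RPKM in E2, 21.0 and 12.4 in 4-OHE1 and 129.9 and 136 in EtOH (log2 change -1.35, adjusted p = 0.0301). The order from EtOH through E2 to 4-OHE1 was the same in both. Lpl, the lipoprotein lipase that frees fatty acids, read 675 and 671 RPKM in EtOH, 219 and 245 with E2 and 82.7 and 83.8 with 4-OHE1 (log2 change -1.20, 95% interval -1.46 to -0.95, adjusted p = 0.00320). Spp1, osteopontin, read 122 and 132 RPKM in EtOH, 22.4 and 22.2 with E2 and 7.61 and 8.21 with 4-OHE1 (log2 change -1.14, adjusted p = 0.0206). Trem2, the lipid receptor of these cells, read 292 and 307 RPKM in EtOH, 122 and 110.1 with E2 and 64.7 and 58.8 with 4-OHE1 (log2 change -0.63, adjusted p = 0.0265). Gpnmb, a lysosomal glycoprotein, stood at 38.6 and 36.2 RPKM in E2 and 15.9 and 19.7 in 4-OHE1, below 220.2 and 229.8 in EtOH, and its change between the estrogens of -0.78 did not pass (adjusted p = 0.0527). Trem2 and Gpnmb were added after seeing their values. With the length trend removed, 10 members were lower, 1 was higher, and Fabp5 and Trem2 did not pass.

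Lysosomal and lipid genes were also described by other lists. Of 31 V-ATPase and lysosomal hydrolase genes, 2 were lower and 0 higher (median -0.19), and edgeR called 6 lower and 2 higher. Atp6v1b2, a subunit of the proton pump, read 91.5 and 98.3 RPKM in E2, 45.0 and 41.5 in 4-OHE1 and 174 and 178 in EtOH (log2 change -0.85, adjusted p = 0.0165). Psap, a cofactor of lysosomal lipid digestion, changed by -0.29 and Ctsd, a lysosomal protease that is also a member of the lipid-associated list, by -0.60, and Psap did not pass with the length trend removed or without 4-OHE1 replicate 2 (log2 change -0.26). Of 15 LXR targets and lipogenesis genes, Scd1 was higher and Apoe and Pltp were lower. Scd1, a desaturase of fatty acids found in fat cells too, was graded from 10.5 and 9.73 RPKM in EtOH through 26.9 and 27.5 in E2 to 46.3 and 49.1 in 4-OHE1 (log2 change 1.04, adjusted p = 0.0162). Apoe, apolipoprotein E and also of the lipid-associated list, read 6979.5 and 6538 RPKM in E2, 4823 and 4746 in 4-OHE1 and 8420.0 and 8677 in EtOH, a small but called change of -0.23 (95% interval -0.30 to -0.16) that did not pass with the length trend removed or without 4-OHE1 replicate 1 (log2 change -0.22). Pltp, a phospholipid carrier, changed by -0.36 and did not pass in the same settings (-0.32 without that replicate). Among 19 cholesterol synthesis genes, Fdps was the 1 lower (log2 change -1.34, adjusted p = 0.0297), 2 had an unadjusted p under 0.05, and edgeR called 0 of them, Fdps included (adjusted p = 0.0511). Fdft1, squalene synthase, stood at 29.2 and 27.1 RPKM in E2 and 26.6 and 25.7 in 4-OHE1, with an interval of -0.18 to 0.48.

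Genes of resident perivascular macrophages were divided. Of 23 tested, 6 were lower, 1 was higher and 16 did not pass (median log2 change -0.18). Vsig4, a complement receptor, read 30.7 and 31.9 RPKM in E2, 5.64 and 7.10 in 4-OHE1 and 25.3 and 24.5 in EtOH (log2 change -1.90, 95% interval -2.35 to -1.44, adjusted p = 0.00544). Cd209g, a lectin of a family with near copies, read 92.0 and 69.4 RPKM in E2, 33.5 and 32.3 in 4-OHE1 and 113 and 116 in EtOH (log2 change -0.995, adjusted p = 0.0194). Cd163, the receptor that clears haemoglobin, was the higher member, at 299 and 285 RPKM in E2, 426 and 440.0 in 4-OHE1 and 175 and 184 in EtOH (log2 change 0.83, 95% interval 0.67 to 1.00, adjusted p = 0.0108). Vsig4 and Cd163 thus moved in opposite directions within a list. Ednrb, the endothelin B receptor, changed by -0.79 (adjusted p = 0.0390), and did not pass without 4-OHE1 replicate 1 (log2 change -0.68).

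Scavenger receptors were divided as well. Of 17 scavenger and efferocytosis receptors, 2 were lower and 1, Cd163, was higher. Cd5l, a secreted scavenger protein of tissue macrophages, read 19.3 and 15.3 RPKM in E2, 1.07 and 0.0660 in 4-OHE1 and 10.3 and 10.4 in EtOH (log2 change -3.46, adjusted p = 0.00656). Marco, a receptor for bacteria and particles, was highest in E2, with 4-OHE1 between E2 and the vehicle. It read 16.2 and 12.9 RPKM in E2, 4.52 and 4.45 in 4-OHE1 and 2.46 and 2.91 in EtOH (log2 change -1.26, adjusted p = 0.0240). Mertk, the receptor for dying cells and added after seeing its values, stood at 29.8 and 31.9 RPKM in E2 and 43.4 and 39.4 in 4-OHE1 and did not pass in limma (log2 change 0.67, adjusted p = 0.106), whereas edgeR gave an adjusted p of 0.00223. Of 20 core macrophage genes, 3 were lower and 0 higher, beside 2.89% lower among all genes, and 17 had an interval within 2-fold, against 48.2%. By edgeR 5 were lower and 3 higher, and with the length trend removed 2 were lower and 3 higher. The lower members were Cx3cr1, the receptor for Cx3cl1 (log2 change -1.498), Lyz2, lysozyme (-0.37), and Cd68 (-0.33). Cx3cr1 read 15.7 and 14.9 RPKM in EtOH, 8.66 and 8.58 with E2 and 2.29 and 1.65 with 4-OHE1. Cd68 did not pass without 4-OHE1 replicate 2 (log2 change -0.31) or with the length trend removed.

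Genes of antigen presentation, the interferon response and Toll-like receptors were compared next. Of 12 genes of MHC class II presentation, 0 passed limma, 2 had an unadjusted p under 0.05, edgeR called 2 higher and 1 lower, and 10 had an interval within 2-fold under both scalings, against 48.2% of all genes. With the length trend removed 4 were higher and 0 lower, Cd74 and H2-Aa among them. Cd74, the invariant chain, read 8997 and 8352 RPKM in E2, 8168 and 8179.8 in 4-OHE1 and 7930.4 and 8123 in EtOH (log2 change 0.18, 95% interval 0.11 to 0.25, and -0.20 to 0.03 with the authors' scaling). H2-Aa, an MHC class II chain, read 5079 and 4818 RPKM in E2, 4510.0 and 4250.2 in 4-OHE1 and 4324 and 4403 in EtOH (interval 0.01 to 0.17, and -0.31 to -0.05 with the authors' scaling, which is of the other sign). Of 30 interferon-stimulated genes, 1 was higher and 0 were lower, beside 0.923% and 2.89% of all genes. Their median log2 change was 0.20, and -0.04 with the authors' scaling. By edgeR 4 were higher and 0 lower, beside 5.63% and 4.8% of all genes in that test. Of the 30, 11 had an interval within 2-fold, against 48.2% of all genes. Irf7, a regulator of the interferon response, read 19.0 and 17.3 RPKM in E2, 29.4 and 27.2 in 4-OHE1 and 17.4 and 19.2 in EtOH (log2 change 0.87, adjusted p = 0.0498, which did not pass with 0.1 RPKM added in place of 1, nor without 4-OHE1 replicate 1 or 2, where its log2 change was 0.84 and 0.91). Of 21 Toll-like receptor and adaptor genes, 1 was lower, beside 2.89% of all genes, 0 were higher and 13 had an interval within 2-fold, against 48.2%. Tlr2, the receptor for bacterial lipoproteins, was the lower 1, at 21.2 and 19.98 RPKM in E2, 9.47 and 8.03 in 4-OHE1 and 37.7 and 36.8 in EtOH (log2 change -0.90, adjusted p = 0.0401), and did not pass with the length trend removed or without 4-OHE1 replicate 2 (log2 change -0.81). Cd14, which hands endotoxin to its receptor, read 333 and 300.1 RPKM in E2 and 238 and 227 in 4-OHE1, an interval of -0.35 to -0.00, and of -0.66 to -0.22 with the authors' scaling.

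The genes that were higher in 4-OHE1 included targets of the glucocorticoid receptor. Of 21 glucocorticoid-responsive genes tested, 6 were higher, 2 were lower and 13 did not pass (median log2 change 0.24, and -0.01 with the authors' scaling), beside 0.923% higher and 2.89% lower among all genes. Fkbp5, a chaperone that dampens the receptor (NM_010220, chromosome 17, 28535698 to 28623094, minus strand, build mm9), was graded from 12.2 and 11.4 RPKM in EtOH through 73.2 and 63.3 in E2 to 152 and 159 in 4-OHE1 (log2 change 1.44, 95% interval 1.19 to 1.69, adjusted p = 0.00332). Zbtb16, a zinc finger transcription factor (NM_001033324, chromosome 9, 48462402 to 48644050, minus strand, build mm9), had the same order, with 1.77 and 1.27 RPKM in EtOH, 5.44 and 5.72 with E2 and 27.5 and 28.4 with 4-OHE1 (log2 change 2.38, 95% interval 1.97 to 2.79, adjusted p = 0.00164). All 3 groups were apart in both genes. Ddit4, an inhibitor of the growth kinase mTORC1 and added after seeing its values, read 33.0 and 30.0 RPKM in EtOH, 183 and 165 with E2 and 246 and 246 with 4-OHE1 (log2 change 0.77, adjusted p = 0.0239), and did not pass without 4-OHE1 replicate 1 or 2 (log2 change 0.78 and 0.75). Sesn1, a stress-induced inhibitor of the same kinase, had another order, with 42.7 and 44.3 RPKM in E2 below 60.7 and 63.1 in EtOH and 85.5 and 70.2 in 4-OHE1 (log2 change 1.08, adjusted p = 0.0167).

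Other glucocorticoid targets were not called higher. Tsc22d3, a widely used target added after seeing its values, read 288 and 279 RPKM in E2, 228 and 229.9 in 4-OHE1 and 214 and 205 in EtOH, with a change of -0.04 and an interval of -0.22 to 0.13 that lies within 2-fold, as did that with the authors' scaling (-0.50 to -0.11). Per1, a clock gene with a glucocorticoid element, read 56.9 and 51.5 RPKM in E2, 61.6 and 54.3 in 4-OHE1 and 26.5 and 26.9 in EtOH. In deposited RPKM the estrogens overlapped and both lay above the vehicle. Relative to exon reads Per1 changed upward by 0.35 (interval 0.07 to 0.64), which was not called. The 2 lower members were Dusp1, described above, and Rgs2, a brake on G protein signals, at 45.5 and 44.6 RPKM in E2, 15.2 and 14.1 in 4-OHE1 and 62.3 and 62.9 in EtOH (log2 change -1.30, adjusted p = 0.00703). Of 13 clock genes, Bhlhe40 was the 1 called, and lower (log2 change -2.09, adjusted p = 0.0317, which did not pass with 0.1 RPKM added in place of 1).

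Further genes higher in 4-OHE1 came from other lists or from none. Rnf169, which binds ubiquitin at DNA breaks, read 7.96 and 9.02 RPKM in EtOH, 39.6 and 33.3 with E2 and 97.4 and 89.2 with 4-OHE1 (log2 change 1.60, 95% interval 1.30 to 1.89, adjusted p = 0.00388). Pik3ip1, an inhibitor of PI3 kinase, read 4.95 and 3.93 RPKM in E2, 20.3 and 14.9 in 4-OHE1 and 2.15 and 2.67 in EtOH (log2 change 1.999, adjusted p = 0.00922). Trp53inp1, a p53 target, read 7.87 and 9.95 RPKM in E2, 19.3 and 23.8 in 4-OHE1 and 2.37 and 2.80 in EtOH (log2 change 1.43, adjusted p = 0.0194). In Rnf169, Pik3ip1 and Trp53inp1 the E2 libraries lay between EtOH and 4-OHE1. Amica1, an adhesion molecule of leukocytes, had the same order, from 1.44 and 1.29 RPKM in EtOH through 10.5 and 11.7 in E2 to 43.8 and 36.1 in 4-OHE1 (log2 change 2.01, adjusted p = 0.00308). Its coordinates overlap Gm10684 on the other strand, and the counting is not stated to use strand. Vcam1, an adhesion molecule that holds lymphocytes, read 31.4 and 30.5 RPKM in EtOH, 135 and 141 with E2 and 181 and 199 with 4-OHE1 (log2 change 0.72, adjusted p = 0.0346), and did not pass without 4-OHE1 replicate 2 (log2 change 0.64). Cd44, a hyaluronan receptor of the same list, was lower (-0.77).

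Malat1, a long RNA retained in the nucleus, moved with the share of tags outside exons. It read 200.1 and 198 RPKM in EtOH, 359 and 506 with E2 and 853 and 985 with 4-OHE1 (log2 change 1.37, 95% interval 0.95 to 1.78, adjusted p = 0.0121). The exon share went down in the same order of groups, from 83.6% and 84.2% through 75.0% and 71.6% to 61.8% and 60.1%, and its part in this and the other differences was not tested. Neat1, another nuclear RNA, read 101.5 and 97.0 RPKM in E2, 101.4 and 106 in 4-OHE1 and 49.6 and 53.7 in EtOH, with an interval of 0.09 to 0.56 within 2-fold.

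**Figure D4:**
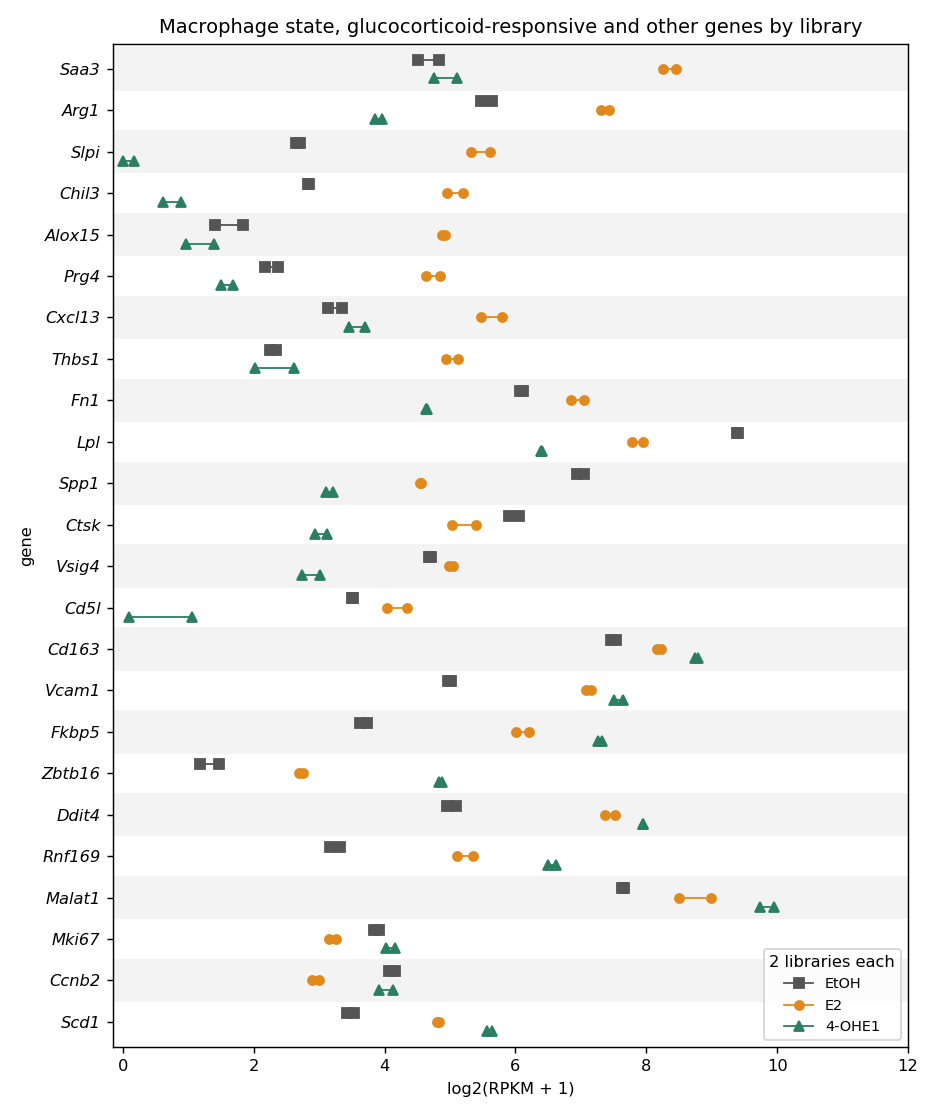
Each line is a gene, with log2(RPKM + 1) of the 2 EtOH (squares), 2 E2 (circles) and 2 4-OHE1 (triangles) libraries joined by a line. Saa3, Slpi, Prg4 and Cxcl13 are highest in E2, and Lpl, Spp1 and Ctsk go down from EtOH through E2 to 4-OHE1. Fkbp5, Zbtb16, Rnf169 and Malat1 go up in that order, and Mki67 and Ccnb2 are lowest in E2.

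The cell division genes that were higher in 4-OHE1 stood lower in E2 than in the vehicle. Of 31 cell cycle genes tested, 4 were higher in 4-OHE1, 1 was lower (Pcna, the clamp of DNA replication) and 26 did not pass (median log2 change 0.56), and edgeR called 7 higher and 1 lower. With the authors' scaling the median was 0.32, and the list summed to 281 and 281 RPKM in E2, 274 and 291 in 4-OHE1 and 533 and 533 in EtOH. Of the replication genes that did not pass, Mcm2, Mcm3, Mcm4, Mcm5 and Mcm6 changed by -0.18 to -0.47 and Mcm7 by 0.56. Mki67, a marker of dividing cells, read 8.52 and 7.84 RPKM in E2, 15.3 and 16.8 in 4-OHE1 and 13.2 and 14.1 in EtOH (log2 change 1.13, 95% interval 0.70 to 1.57, adjusted p = 0.0289). Ccnb2, a mitotic cyclin, read 6.95 and 6.42 RPKM in E2, 14.0 and 16.6 in 4-OHE1 and 15.8 and 16.9 in EtOH (log2 change 1.32, adjusted p = 0.0194). Bub1b, of the spindle checkpoint, read 4.01 and 4.32 RPKM in E2, 10.7 and 14.0 in 4-OHE1 and 6.86 and 8.52 in EtOH (log2 change 1.59, adjusted p = 0.0179). Stmn1, a regulator of microtubules, read 18.04 and 19.99 RPKM in E2, 31.8 and 31.6 in 4-OHE1 and 43.5 and 41.4 in EtOH (log2 change 0.97, adjusted p = 0.0315). Outside the list, Ube2c, the ubiquitin enzyme of mitotic exit, changed by 1.82 (adjusted p = 0.0229) and Hist1h1b, a linker histone with near copies, by 2.33 (adjusted p = 0.0302). Mki67 did not pass with the length trend removed, or without 4-OHE1 replicate 2 (log2 change 1.05).

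Stress genes were lower in part. Of 23 NRF2 antioxidant targets, 6 were lower and 0 higher (median -0.33), and edgeR called 9 lower and 0 higher. Akr1b8, an aldo-keto reductase, read 55.2 and 52.2 RPKM in E2, 7.64 and 9.59 in 4-OHE1 and 69.3 and 68.2 in EtOH (log2 change -2.27, 95% interval -2.68 to -1.85, adjusted p = 0.00175). Hmox1, which degrades heme, read 422 and 384 RPKM in E2, 220.4 and 227 in 4-OHE1 and 325 and 336 in EtOH (log2 change -0.58, adjusted p = 0.0121). Prdx1, a peroxidase, changed by -0.65 and Srxn1, which repairs it, by -0.96, and neither passed with the length trend removed, where 3 members were lower, or without 4-OHE1 replicate 1 (log2 change -0.52 and -0.87). Of 19 heat shock chaperones under HSF1, 5 were lower and 0 higher (median -0.34). Hspa1a, of the Hsp70 family and nearly identical to Hspa1b, read 22.3 and 21.4 RPKM in E2, 4.04 and 6.41 in 4-OHE1 and 18.2 and 17.9 in EtOH (log2 change -1.67, adjusted p = 0.0188). Stip1, which links chaperones, changed by -0.93. Of 18 mitochondrial chaperones and proteases, limma called 0, 3 had an unadjusted p under 0.05, and edgeR called 2 lower. Hspa9 of that list stood at 46.4 and 46.4 RPKM in E2 and 27.5 and 28.9 in 4-OHE1 (log2 change -0.44, 95% interval -0.75 to -0.13).

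Of 17 integrated stress response genes, 3 were lower and 0 higher. Gdf15, a stress hormone, read 32.5 and 23.6 RPKM in E2, 4.52 and 0.748 in 4-OHE1 and 38.0 and 42.1 in EtOH (log2 change -3.00, 95% interval -4.21 to -1.80, adjusted p = 0.0277). Its 4-OHE1 libraries lay apart from each other and below all others. Ppp1r15a, which reverses the block on translation, read 228 and 213 RPKM in E2, 63.4 and 73.4 in 4-OHE1 and 181 and 190.4 in EtOH (log2 change -1.42, adjusted p = 0.00194). Of 16 p53 targets, 2 were higher (Sesn1 and Trp53inp1) and 2 lower (Gdf15 and Btg2). Iron genes were lower in 4 of 18. Tfrc, the transferrin receptor, was graded from 19.9 and 19.1 RPKM in EtOH through 5.65 and 6.78 in E2 to 1.09 and 1.38 in 4-OHE1 (log2 change -1.51, adjusted p = 0.0358). The ferritin chains Fth1 and Ftl1 changed by -0.42 and -0.35.

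Genes of energy metabolism and of ribosomes were lower where limma called them, except Pfkfb3. Of 81 oxidative phosphorylation genes, 3 were lower and 0 higher, beside 2.89% lower among all genes (median -0.23), 58 had an interval within 2-fold, and edgeR called 6 lower. With the length trend removed limma called 0 of them and their median was -0.02, with a median exon length of 662 bases against 2592 for all genes. Atp5b, of the ATP synthase, read 260.0 and 224 RPKM in E2, 147 and 147 in 4-OHE1 and 289 and 298 in EtOH (log2 change -0.45, adjusted p = 0.0425), and did not pass without 4-OHE1 replicate 1 or 2 (-0.43 and -0.46). Cytosolic ribosomal protein genes, of similar length, had 5 lower of 82, 80 with an interval within 2-fold, and a median of -0.14. With the trend removed 0 were called and the median was 0.05, while edgeR called 5 lower and DESeq2 13. Mitochondrial ribosomal protein genes had 3 lower of 77 (Mrpl15 -1.37, Mrpl52 -0.92, Mrpl4 -0.79), beside 2.89% of all genes, and 1 with the trend removed. Of 31 TCA cycle and fatty acid oxidation genes, 1 was lower (Fh1, fumarase, -0.70) and 26 had an interval within 2-fold. Among all genes 2.89% were lower and 48.2% had such an interval. Fh1 did not pass without 4-OHE1 replicate 1 (-0.66) or with the length trend removed, where 0 of the 31 were called, and edgeR called 2 of them lower. Of 23 genes of glycolysis and hypoxia, 3 were lower and 1 higher, and 2 and 1 with the length trend removed. Ldha, lactate dehydrogenase, was graded from 241 and 238 RPKM in EtOH through 151 and 139.8 in E2 to 72.6 and 59.3 in 4-OHE1 (log2 change -0.87, adjusted p = 0.0152). Pkm, pyruvate kinase, changed by -0.82, and Pfkfb3, which raises glycolytic flux, was higher, at 18.2 and 21.4 RPKM in E2, 34.2 and 33.3 in 4-OHE1 and 12.3 and 12.7 in EtOH (log2 change 1.003, adjusted p = 0.0303).

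The estrogen receptors were low or not detected. Esr1 read 1.72 and 0.977 RPKM in E2, 2.99 and 2.93 in 4-OHE1 and 1.24 and 1.10 in EtOH, a log2 change of 0.95 (95% interval 0.19 to 1.71), not called in limma (adjusted p = 0.173), with an adjusted p of 0.0144 in edgeR. Esr2 had 0 reads in all 4 libraries of the estrogens, and Gper1, the membrane receptor, had 5 reads in E2 and 5 in 4-OHE1. Among all genes 2.89% were lower and 48.2% had an interval within 2-fold. Of 11 estrogen receptor and estrogen-responsive genes tested, limma called Ctsd lower (-0.60), and 4 had an unadjusted p under 0.05. By edgeR 3 of the list were lower and 1 higher, beside 4.8% and 5.63% of all genes in that test. Of the 11, 6 had an interval within 2-fold. Among these Igfbp4 read 268 and 241 RPKM in E2 and 244 and 221 in 4-OHE1 (interval -0.06 to 0.33). Of 9 estrogen-metabolizing enzymes tested, limma called 0, 2 had an unadjusted p under 0.05, and edgeR called 1 higher. Sult1a1, a sulfotransferase, read 162 and 153 RPKM in E2, 203 and 193 in 4-OHE1 and 113 and 121 in EtOH and was called by edgeR alone (limma adjusted p = 0.0714, edgeR 0.00105). Cyp1b1, which forms catechol estrogens, read 1.63 and 1.24 RPKM in E2 and 1.65 and 2.23 in 4-OHE1, and its interval of -0.36 to 1.24 was too wide to place it within 2-fold. Of 4 targets of the aryl hydrocarbon receptor tested, limma and edgeR called 0, with 1 at an unadjusted p under 0.05, and Cyp1a1 had 0 reads in E2 and 8 in 4-OHE1.

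Markers of other cells moved beside these groups. Adipocyte markers were higher in 4-OHE1 in 3 of 11 genes tested, with 0 lower (median log2 change 0.76) and a summed level of 781 and 781 RPKM in E2, 962 and 960.4 in 4-OHE1 and 479.9 and 492 in EtOH. Cfd, which encodes adipsin, read 27.5 and 27.5 RPKM in E2, 49.0 and 45.5 in 4-OHE1 and 4.39 and 4.78 in EtOH (log2 change 1.02, adjusted p = 0.0186). Adipoq, which encodes adiponectin and was added after seeing its values, read 7.05 and 8.74 RPKM in E2, 13.3 and 11.4 in 4-OHE1 and 5.05 and 4.77 in EtOH and did not pass (adjusted p = 0.114). The part of fat cell RNA in the changes of Scd1, Fkbp5 and other genes higher in 4-OHE1 was not tested. Stromal cell markers summed to 501 and 459 RPKM in E2, 365 and 374 in 4-OHE1 and 652 and 645 in EtOH, and 1 of 12, Dpt, was higher (log2 change 0.84, and not passed without 4-OHE1 replicate 1 or 2, at 0.84 and 0.84). Endothelial markers summed to 59.9 and 53.1 RPKM in E2 and 57.2 and 65.2 in 4-OHE1, with 0 of 9 called by limma, 1 at an unadjusted p under 0.05 and 1 called higher by edgeR. Dendritic cell markers summed to 76.2 and 68.2 RPKM in E2, 31.9 and 35.6 in 4-OHE1 and 104 and 99.0 in EtOH, and 2 of 3 tested were lower (Batf3 -0.86, Cd209a -0.89), neither with the length trend removed. Batf3 was not called by edgeR either (adjusted p = 0.0695), or without 4-OHE1 replicate 1 (log2 change -0.77). Neutrophil markers summed to 58.7 and 51.3 RPKM in E2 and 57.2 and 51.4 in 4-OHE1, with Ly6g, Retnlg, Cxcr2 and Camp at 0. T cell markers summed to 11.4 and 12.1 RPKM in E2 and 9.87 and 7.64 in 4-OHE1, B cell markers to 12.3 and 12.1 and 12.97 and 10.1, and those of NK, mast and mesothelial cells and eosinophils to under 5 RPKM in each library of the estrogens.

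**Figure D5:**
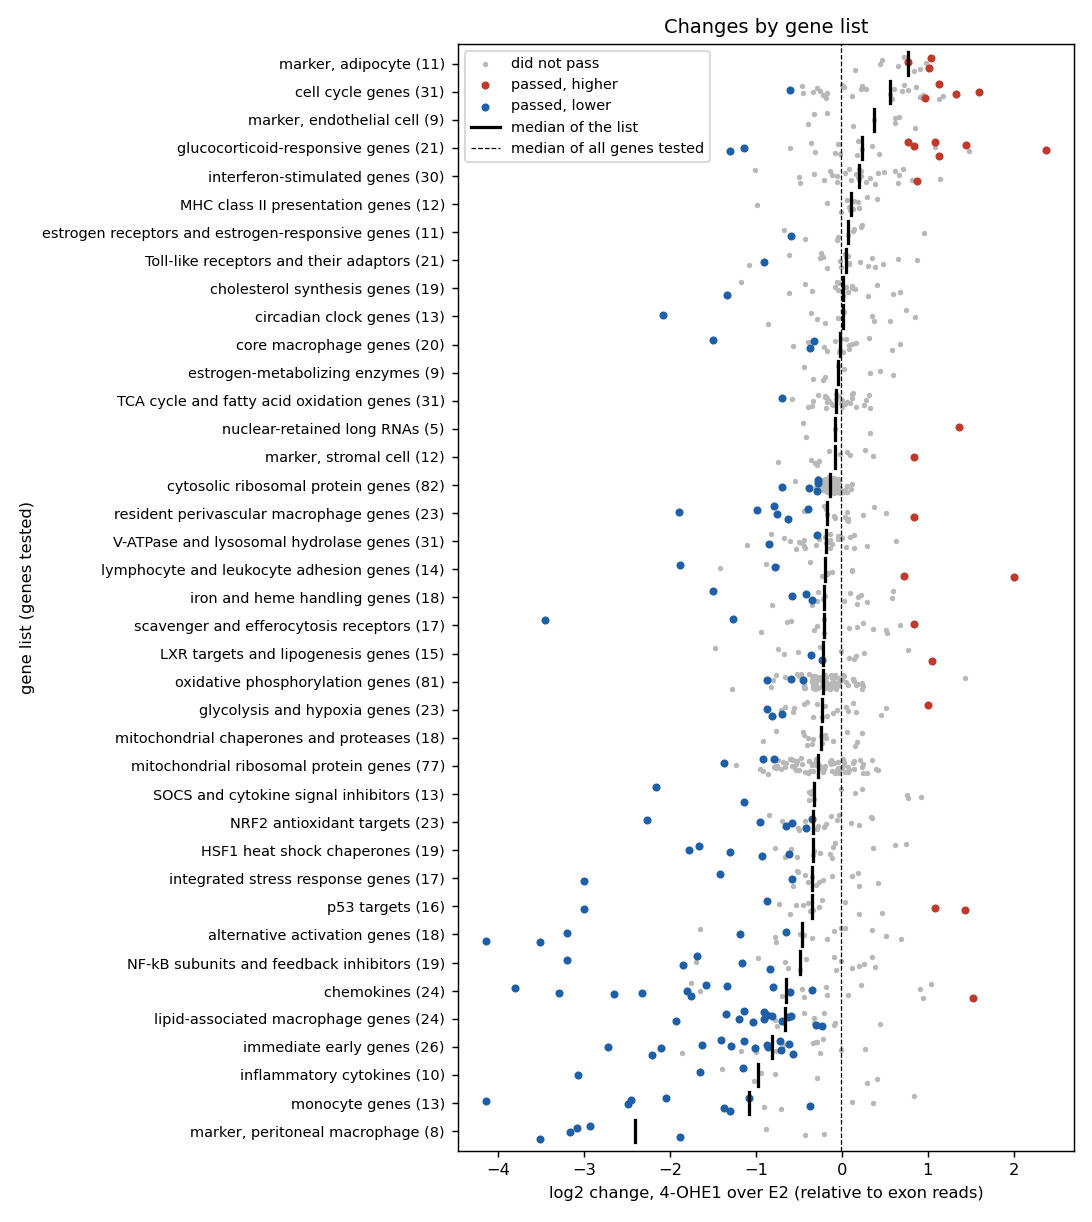
Each point is a gene tested, placed by its log2 change of 4-OHE1 over E2 relative to exon reads, for the lists with at least 5 genes tested, ordered by the list's median (black bar). Peritoneal macrophage, monocyte, inflammatory cytokine, immediate early, lipid-associated macrophage and chemokine genes lie at the low end, and adipocyte and cell cycle genes at the high end, against a median of -0.01 for all genes (dashed line).

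Short RNA genes made up many of the largest changes by the RPKM test and rest on few reads. Of the 12 named lower genes with the largest change, Mir1981, Mir704, Mir1892, Mir3960, Mir877 and Snord57 had 0 reads in 4-OHE1 and 12 to 35 in E2, and Snora24 had 3 against 45. Mir1981 was at least 10.9-fold lower and Snord57 at least 3.75-fold, by the floor of 3 reads. Of the 12 higher genes, Mir7688, Mir8097, Mir1896 and Mir7063 rest on 4, 7, 22 and 5 reads in E2 and 24, 36, 75 and 18 in 4-OHE1, and Vaultrc5 on 28 and 100. In all, 22 lower and 5 higher genes were shorter than 200 bases, with at most 31 and 45 reads in any library, and edgeR called 0 of these. Mir1896, Mir7063 and Mir7688 did not pass either without a 4-OHE1 library (log2 change 1.76 for Mir1896 and 1.33 for Mir7063 without replicate 1, 1.99 for Mir1896 and 2.29 for Mir7688 without replicate 2). Several lie inside longer genes on the same strand (Mir1981 in Marc2, Mir704 in Pdia4, Snord57 in Nop56), whose reads cannot be told from theirs.

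For 5223 genes (48.2%) the 95% interval of the change lay within 2-fold under both scalings. Where such genes lay well above the RPKM added before the logarithm, the estrogens differed by less than that within the error of these libraries. For genes with low RPKM the added amount narrows the change, so their intervals do not limit the difference in RPKM itself to 2-fold. With 0.1 RPKM added instead, 3974 genes had an interval within 2-fold. The median coefficient of variation between replicates over 1028 genes with a mean of at least 50 RPKM was 5.54% in E2 and 6.10% in 4-OHE1. For the remaining genes that were not called, these libraries show neither a difference past the adjusted threshold nor one limited to 2-fold.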

How the data were processed

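RNA-seq of sorted fat macrophages was compared between 2 E2 and 2 4-OHE1 libraries, with 2 EtOH libraries given beside them. The deposited RPKM table was made by the authors, per the file headers from HOMER per gene, as reads over exon length and over the tags of each library. Other deposited tables hold signal in the form of exon reads that the authors scaled to a common total, in separate tables for each estrogen with EtOH. From the steps between values whole reads were recovered: 100% of values were whole within 0.05 of a read, which undid the separate scaling. The submitters' processing notes name STAR, HOMER, DESeq2 and edgeR, without versions, and the build mm9. Whether counting used strand is not given in the sources used here.

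RPKM is not a count, so a count test was not the main one. log2(RPKM + 1) of genes with a mean of at least 1 RPKM over the 4 libraries was fitted with limma 3.58.1 (R 4.3.3), without a replicate block, under the authors' scaling and relative to exon reads, with Benjamini-Hochberg adjustment over all 10833 genes. A call needed an adjusted p of 0.05 and the same direction under both. Intervals are at 95%. edgeR 4.0.16 (quasi-likelihood) and DESeq2 1.42.0 were run on the recovered reads. For these, 266 genes whose transcript differed between the tables were left out, and 2252 tested genes have another transcript in the RPKM table, among them Thbs1 and Pfkfb3. The fits were tested on simulated data. Floors of 3 reads and ratios of reads cover counting error only, since reads carry no molecular identifiers.

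Genes named are, for each direction, the 12 called genes with the largest change at a mean of at least 5 RPKM and no overlap between libraries, and for each of 50 lists up to 4 called members with the largest change, or the 2 most abundant members where at most 1 was called. Malat1, Neat1, the estrogen receptors and the sorting antigens are named in any case, and others are said to be added. The comparison and the lists were chosen with earlier results of these data known. Pseudocount, filter, scaling, samples in the fit, replicate block, each replicate left out, exon length and read minimum were varied. The last 2 were chosen after seeing the data.

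The replicate numbers were not shown to pair the libraries. Promoters are from RefSeq, GRCm38.p6, and gene positions are from the deposited tables.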

Additional observations from a re-analysis of the deposited data

How the results depend on the processing

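Against 100 higher, 313 lower and 5223 genes with an interval within 2-fold, the settings that moved a count by over 1.5 times were as follows. With no filter on low values, 15 were higher, 68 lower and 8610 within 2-fold. Relative to exon reads alone 161 were higher, and with median centring 155. The authors' scaling alone gave 1065 lower genes. With all 6 libraries in the fit, 275 were higher and 778 lower. edgeR called 601 higher and 512 lower, and DESeq2 590 and 491. Removing the exon length trend left 157 lower. Leaving out each library in turn gave 0 to 132 higher, 0 to 494 lower and 1787 to 4941 genes within 2-fold, with 0 calls where an E2 library was left out. The cause was not tested. Adding 0.1 RPKM, a minimum of 5 RPKM and a minimum of 50 reads stayed within 1.5 times. With the replicate number as a block, 106 genes were higher, 300 lower and 5142 within 2-fold. Of the named genes Atp5o, Batf3, Fh1, Hsph1, Irf7, Mrpl4, Selp, Srxn1 and Tlr2 did not pass there. The deviations of same-numbered libraries had a correlation of 0.058 over 6852 genes, so the number is not shown to pair them. No result changed direction while called. Of 125 named genes that passed, 33 kept the call in every setting except those without an E2 library, among them Cxcl1, Cxcl2, Tnfaip3, Slpi, Saa3, Arg1, Fos, Dusp1, Fkbp5, Zbtb16 and Cd163. With 2 libraries a group and 4515276 to 5764342 exon reads each, edgeR called 0 of the 22 lower and 5 higher genes under 200 bases, which have few reads.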
